A study of Mus musculus with 10 samples.

Results

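Of the transcripts of the YAP and TAZ pathway, the secreted targets *Cyr61* and *Ctgf* and the TEAD cofactor *Vgll3* were far lower in glioma propagating cells than in the tumorigenic astrocytes they came from, while *Yap1*, *Wwtr1*, *Tead1* and *Tead2* themselves overlapped between these groups. The set described comprised 10 genes, chosen by symbol among the 23230 features of the study's expression matrix, and all 10 were found. They were the coactivator genes *Yap1* and *Wwtr1* (which encodes TAZ), the 4 TEAD genes *Tead1* to *Tead4*, the target genes *Ctgf*, *Cyr61* and *Ankrd1*, and the cofactor gene *Vgll3*.

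YAP and TAZ carry no DNA-binding domain and act on transcription mainly by binding TEAD factors at their sites. The Hippo kinase cascade, in which MST kinases activate LATS kinases, phosphorylates both coactivators, which keeps them out of the nucleus or marks them for degradation. CTGF and CYR61 are secreted matricellular proteins of the CCN family and ANKRD1 is a nuclear ankyrin repeat protein, and their transcripts are widely read as a sign of YAP and TAZ activity. Vestigial-like proteins such as VGLL3 bind TEAD at a surface that overlaps that of YAP and TAZ. Transcript levels show neither where YAP and TAZ are in the cell nor how far they are phosphorylated.

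RNAseq values of 10 mouse cell cultures were used, with 1 library each. AstroEGFR* (n = 3) were astrocytes from the cerebral cortex of C57BL/6 pups at postnatal day 5, p16/p19 (*Ink4a/Arf*) null and infected with a retrovirus for human EGFRvIII, in 3 batches numbered 1 to 3. PT (n = 4) were glioma propagating cells cultured from tumours that such astrocytes formed in CD1 Nude mice. The tumours of PT1 and PT4 arose from astrocytes of batch 1, that of PT2 from those of batch 2 and that of PT3 from those of batch 3. AstroEGFR* *Zfp423* (n = 3) were the same 3 batches infected with a second virus, lentiviral per the labels and retroviral per the study's methods, that expresses the zinc finger factor *Zfp423*. All 10 cultures shared the *Ink4a/Arf* deletion and the EGFRvIII transgene and were under passage 10. Astrocytes were grown with serum and PT without it, with EGF and FGF2 on laminin, so the medium and the passage through a tumour cannot be told apart. Nude hosts lack T cells, and p-values measure the spread between these cultures only.

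To place the transcripts beside TEAD's recognition element, the 250 bases before the gene start were read from RefSeq (GRCm38.p6). Entries matched for 7 of the 10 genes, and *Ctgf*, *Tead1* and *Tead4* had none. The letters CATTCC, or GGAATG for the other strand, were present in at least 1 start's window of 6 of these 7 genes (*Cyr61*, *Vgll3*, *Ankrd1*, *Yap1*, *Wwtr1* and *Tead3*, not *Tead2*), against 12.6% of all 32851 promoters and 14.4% of 27025 genes in the table. A match of letters is a description and not a binding site. The windows of the target *Cyr61* (chr3:145649986-145650235, minus strand), the cofactor *Vgll3* (chr16:65814939-65815188, plus strand) and the target *Ankrd1* (chr19:36119845-36120094, minus strand) are shown because these are the target and cofactor genes that had an entry, 5′ to 3′ with the motif in capitals.
*Cyr61*: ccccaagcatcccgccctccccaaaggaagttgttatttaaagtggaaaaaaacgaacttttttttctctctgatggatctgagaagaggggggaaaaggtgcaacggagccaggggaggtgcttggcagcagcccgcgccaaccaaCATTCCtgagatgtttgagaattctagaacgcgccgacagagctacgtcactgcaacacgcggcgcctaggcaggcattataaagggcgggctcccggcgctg
*Vgll3*: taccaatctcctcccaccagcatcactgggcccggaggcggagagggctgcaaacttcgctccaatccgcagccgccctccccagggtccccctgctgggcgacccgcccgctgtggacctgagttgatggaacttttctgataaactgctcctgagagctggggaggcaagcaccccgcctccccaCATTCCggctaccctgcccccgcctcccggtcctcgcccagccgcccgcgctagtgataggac
*Ankrd1*: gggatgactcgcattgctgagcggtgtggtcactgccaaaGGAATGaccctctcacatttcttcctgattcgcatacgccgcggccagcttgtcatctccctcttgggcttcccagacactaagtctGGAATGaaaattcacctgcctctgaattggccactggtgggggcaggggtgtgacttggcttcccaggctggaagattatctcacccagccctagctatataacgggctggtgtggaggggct
In these windows the motif began 103 bases upstream of the start in *Cyr61*, 63 bases upstream in *Vgll3*, and 210 and 123 bases upstream in *Ankrd1*.

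Levels are given as FPKM, fragments scaled to transcript length and library size, which the authors deposited. The matrix holds no fragment counts, so the depth of a library and the counting error of a value are unknown. *Gapdh*, which every cell uses, was listed at 0.0106 to 50.1 FPKM, so that a value near 0 is reported as listed and not as absence. The FPKM of a library summed to between 361102 and 860068, of which 724 small RNA features took 0.738% to 54.5%. Factors that put the libraries on a common scale by median ratios lay between 0.973 and 1.05. *Zfp423* was listed at 3.25 to 4.30 FPKM in AstroEGFR*, at 0.641 to 2.78 FPKM in PT, and at 15.7 FPKM (batch 1), 9.73 FPKM (batch 2) and 105 FPKM (batch 3) after infection with its vector. Astrocyte markers (8 genes) summed to 509 to 1048 FPKM in AstroEGFR*, 352 to 921 FPKM in PT, and 199, 59.4 and 904 FPKM in the 3 *Zfp423* libraries. Markers of neural progenitors and glioma propagating cells (7 genes) summed to 643 to 2042 FPKM in AstroEGFR*, 484 to 3511 FPKM in PT, and 796, 192 and 2578 FPKM with *Zfp423*, and the first 2 groups overlapped.

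**Figure D1:**
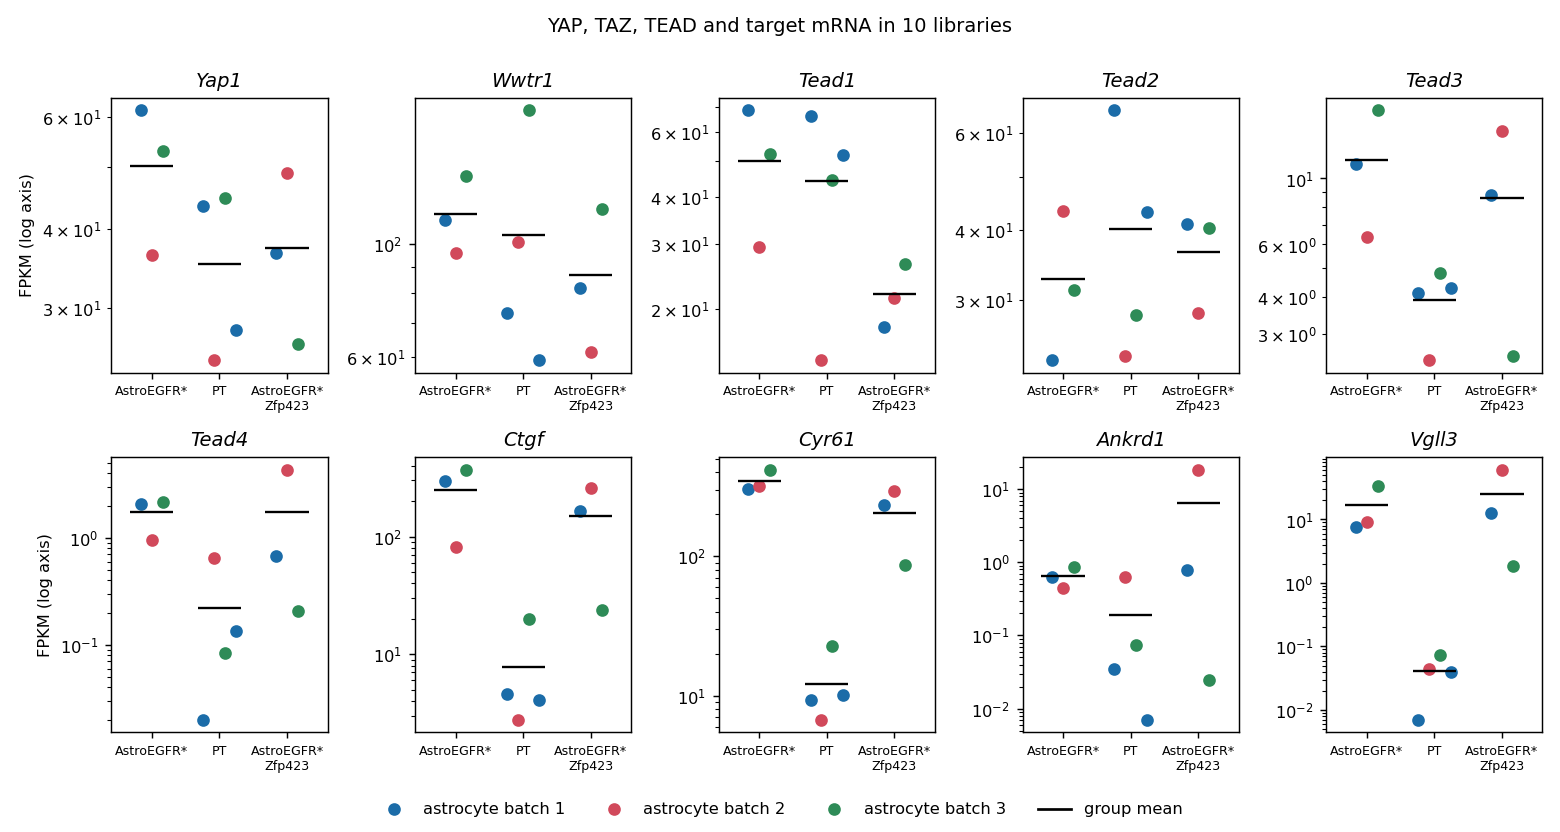
FPKM (log axis) of the 10 genes in each library, by group, with points coloured by astrocyte batch and a line at the group mean. The 4 PT points lie below the 3 AstroEGFR* points for *Tead3*, *Tead4*, *Ctgf*, *Cyr61* and *Vgll3*, and the groups overlap for the other genes.

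The coactivators were plentiful in every library. *Yap1* was listed at 61.5, 36.3 and 53.0 FPKM in AstroEGFR* and at 43.4, 24.8, 44.7 and 27.7 FPKM in PT, each in the order of the library numbers, and the groups overlapped. Its difference, PT minus AstroEGFR* on the log2(FPKM + 1) scale used for every fold change here, was -0.52 (SE 0.31, limma adjusted p = 0.535). *Wwtr1* was higher than *Yap1* in all 10 libraries, at 1.25 to 4.45 times its level per length. It stood at 111, 96.1 and 136 FPKM in AstroEGFR* and at 73.0, 101, 183 and 59.2 FPKM in PT. Both the highest and the lowest of these 7 values were PT, and the log2 difference was -0.26 (SE 0.40, limma adjusted p = 0.846).

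Among the TEAD factors, which bring YAP and TAZ to DNA, *Tead1* and *Tead2* made up 81.4% to 90.9% of the summed TEAD level in AstroEGFR* and 92.5% to 97.0% in PT. *Tead1* was listed at 68.5, 29.5 and 52.4 FPKM in AstroEGFR* and at 66.0, 14.6, 44.4 and 51.9 FPKM in PT, with the library of batch 2 lowest in both groups. Its log2 difference was -0.28 (SE 0.54, limma adjusted p = 0.878). *Tead2* was listed at 23.3, 43.4 and 31.3 FPKM in AstroEGFR* and at 65.9, 23.7, 28.2 and 43.2 FPKM in PT. These ranges overlapped too, with a log2 difference of 0.23 (SE 0.40, limma adjusted p = 0.864).

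The less abundant *Tead3* and *Tead4* were lower in every PT library than in any AstroEGFR* library. *Tead3* was listed at 11.2, 6.38 and 17.0 FPKM in AstroEGFR* and at 4.11, 2.45, 4.81 and 4.28 FPKM in PT. The groups did not overlap, yet the log2 difference of -1.28 (SE 0.36) did not pass the test over all features (limma adjusted p = 0.164). With the astrocyte batch as a replicate block it did, at -1.31 (limma adjusted p = 0.0329), and 2.68% of features were then called lower. *Tead4* was listed at 2.06, 0.944 and 2.18 FPKM in AstroEGFR* and at 0.0200, 0.652, 0.0846 and 0.134 FPKM in PT. It did not reach the mean of 1 FPKM required for the test and, in the fit without that filter, differed by -1.15 (SE 0.24, limma adjusted p = 0.126).

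The targets *Cyr61* and *Ctgf* were far lower in PT. *Cyr61*, also called *Ccn1*, was listed at 301, 317 and 416 FPKM in AstroEGFR* and at 9.40, 6.75, 22.6 and 10.1 FPKM in PT. Its mean was 345 ± 62.5 FPKM (SD, n = 3) in AstroEGFR* against 12.2 ± 7.08 FPKM (SD, n = 4) in PT, 28.2-fold lower, and the lowest astrocyte library was far above the highest PT library. The log2 difference of -4.83 (SE 0.39) passed the test (limma adjusted p = 0.00471), and it passed in 16 of 16 alternative settings.

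*Ctgf*, also called *Ccn2*, was listed at 297, 82.3 and 370 FPKM in AstroEGFR* and at 4.56, 2.78, 20.0 and 4.07 FPKM in PT. The groups did not overlap, AstroEGFR*2 was the lowest astrocyte library, and PT3 the highest PT library. The mean fell 31.8-fold, from 250 ± 149 FPKM (SD, n = 3) to 7.85 ± 8.12 FPKM (SD, n = 4), with a log2 difference of -4.93 (SE 0.72, limma adjusted p = 0.0260). This call depended on single libraries. Without AstroEGFR*1 the adjusted p was 0.134, without AstroEGFR*3 it was 0.0945, and without PT1, PT2 or PT4 it was 0.0625, 0.0596 or 0.0817 (limma), while the log2 difference stayed at -4.52 or below in 16 of 16 settings.

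*Ankrd1* was scarce. It was listed at 0.629, 0.442 and 0.877 FPKM in AstroEGFR* and at 0.0346, 0.635, 0.0745 and 0.00705 FPKM in PT, where PT2 reached the astrocytes' range and the other 3 did not. It was under the filter, and without it the log2 difference was -0.50 (SE 0.19, limma adjusted p = 0.376).

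The cofactor *Vgll3* was listed at 7.69, 9.13 and 33.5 FPKM in AstroEGFR* and at 0.00703, 0.0445, 0.0742 and 0.0392 FPKM in PT. No PT library reached 0.1 FPKM and no AstroEGFR* library was under 7 FPKM. The log2 difference was -3.80 (SE 0.50, limma adjusted p = 0.0175), a scale that understates the fall of a gene listed near 0. It reached the mean of 1 FPKM through AstroEGFR* alone, so it entered the test only because it was high there, and in the fit without the filter the adjusted p was 0.0416 (limma). Without AstroEGFR*1 or PT4 it no longer passed (limma adjusted p = 0.0615 and 0.0577), while the log2 difference was -3.17 or below in 16 of 16 settings.

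**Figure D2:**
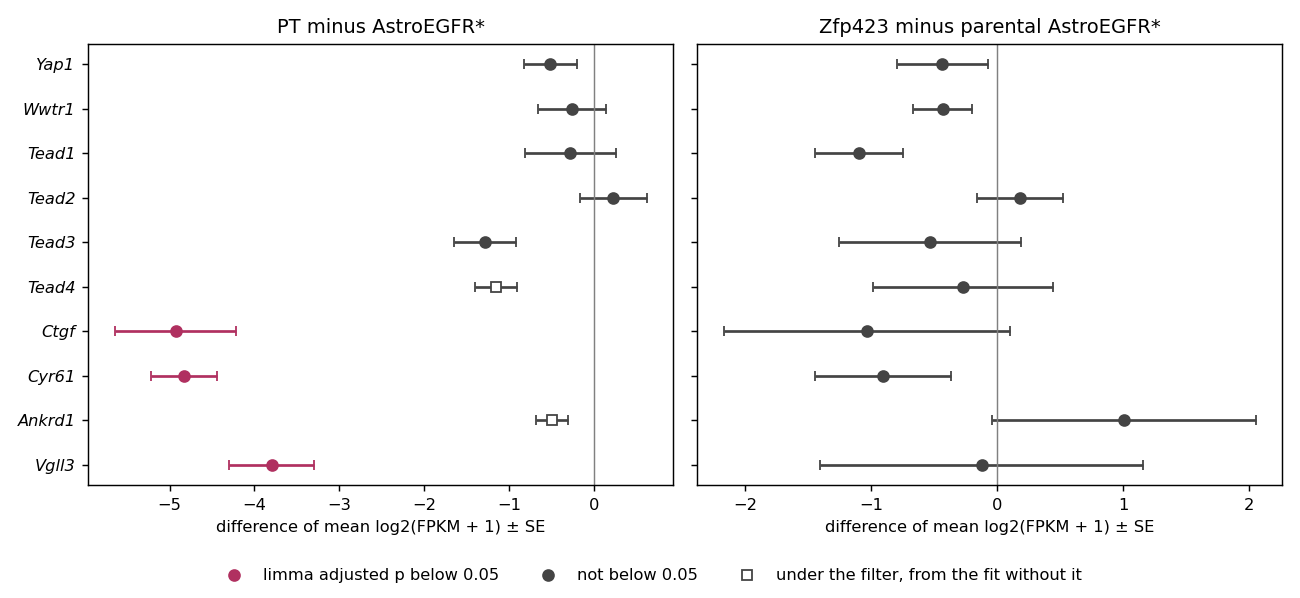
Difference of mean log2(FPKM + 1) with its standard error for each gene, PT minus AstroEGFR* (left) and *Zfp423* minus parental AstroEGFR* (right). *Ctgf*, *Cyr61* and *Vgll3* are past the threshold on the left at -4.93, -4.83 and -3.80, and no gene is past it on the right.

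In all, 8 of the 10 genes passed the filter in this comparison and 3 of them fell, beside 0.922% of the 12261 features tested that were called lower, and 0 rose, beside 0.318% called higher (1.24% in either direction). *Vgll3*, 1 of the 3, passed the filter through AstroEGFR* alone, so these counts are a description of the genes that passed and not of all 10. At an unadjusted p under 0.05, 4 of the 8 differed, all lower, beside 13.6% of features in either direction. The groups did not overlap for 4 of the 8, all lower in PT, beside 7.81% of features that were lower in every PT library. The median log2 difference of the 8 was -0.90, beside 0.027 over all features. The summed level of *Ctgf*, *Cyr61* and *Ankrd1* was 400 to 787 FPKM in AstroEGFR* and 10.2 to 42.7 FPKM in PT. The summed level of *Yap1* and *Wwtr1* was 132 to 189 FPKM and 86.9 to 227 FPKM, so that the coactivators overlapped where the targets did not.

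The order of the genes by level turned over between these groups. In AstroEGFR* *Cyr61* and *Ctgf* led with means of 345 and 250 FPKM, their ranges overlapping each other, and *Ctgf* also overlapped the next gene, *Wwtr1* at 114 FPKM. *Yap1*, *Tead1* and *Tead2* followed at 50.3, 50.1 and 32.7 FPKM, each overlapping its neighbour. In PT *Wwtr1* led by mean at 104 FPKM, with a range that overlapped those of *Tead1* and *Tead2*. *Tead1*, *Tead2* and *Yap1* followed at 44.2, 40.2 and 35.2 FPKM with overlapping ranges. *Cyr61* and *Ctgf* came only after these, at 12.2 and 7.85 FPKM. *Vgll3* had the lowest mean, 0.0412 FPKM, with a range that overlapped those of *Ankrd1* and *Tead4*.

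The same genes were compared with AstroEGFR* of the same astrocyte batch. *Cyr61* differed by -4.86, -5.36, -4.14 and -4.76 on the log2 scale, from PT1 to PT4. *Ctgf* differed by -5.74, -4.46, -4.14 and -5.88, and *Vgll3* by -3.11, -3.28, -5.01 and -3.06. Each of these genes was thus lower in 4 of 4 PT libraries than in their own astrocytes. So were *Tead3* (-1.25, -1.10, -1.63 and -1.21), *Tead4* (-1.59, -0.24, -1.55 and -1.43), *Yap1* (-0.49, -0.53, -0.24 and -1.12) and *Tead1* (-0.051, -0.96, -0.23 and -0.39). With the batch as a block, *Yap1* and *Tead1* did not pass (limma adjusted p = 0.200 and 0.258).

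Some markers of other cell types were lower in PT, as the targets were, and others were not. Pericyte and smooth muscle markers (8 genes, of which *Myh11*, *Des*, *Kcnj8* and *Abcc9* stayed under 1 FPKM in both groups) summed to 755 to 1808 FPKM in AstroEGFR* and 2.6 to 68.6 FPKM in PT, and most of the astrocytes' sum was *Acta2*, at 725 to 1730 FPKM. *Cspg4*, also of this list and an oligodendrocyte precursor marker, went the other way in some libraries, at 1.12 to 7.08 FPKM in AstroEGFR* and at 18, 1.41, 0.0295 and 64.5 FPKM in PT, and made up most of the sum of PT4. Fibroblast and meninges markers (8 genes, none under 1 FPKM in all libraries of a group) summed to 407, 564 and 5182 FPKM in the AstroEGFR* of batches 1, 2 and 3 and to 9.94 to 431 FPKM in PT, so the groups overlapped there. PT2 had the lowest sum of both lists and the lowest *Ctgf* and *Cyr61*. These are bulk libraries, in which fewer cells of a type and less RNA per cell cannot be told apart. The part of such cells in the fall of the targets was not tested.

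The kinases and adaptors that restrain YAP and TAZ were considered next. Of 7 core genes (*Stk3*, *Stk4*, *Sav1*, *Lats1*, *Lats2*, *Mob1a* and *Mob1b*) all 7 were tested and 0 were called, beside 1.24% of all features, and 0 of 7 is near that share. Their median log2 difference was -0.14. *Lats2*, the kinase gene that is itself a target of YAP, was listed at 47.6, 24.2 and 18.3 FPKM in AstroEGFR* and at 14.5, 13.4, 7.55 and 9.74 FPKM in PT. The groups did not overlap, and the log2 difference was -1.26 (SE 0.38, limma adjusted p = 0.184). The adaptor gene *Sav1* differed by -0.74 (SE 0.28, limma adjusted p = 0.303). *Mob1a*, *Stk4*, *Lats1* and *Stk3* differed by -0.15, -0.10, -0.090 and 0.53, with limma adjusted p between 0.806 and 0.943.

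Of 20 upstream regulators 19 were tested and 2 were called, both lower, beside 0.922% of all features called lower, with a median of -0.14. With the batch as a block 4 were called, all lower, beside 2.68% of features. *Jub*, the gene of the LIM protein Ajuba, which inhibits LATS, was listed at 27.1, 19.0 and 29.2 FPKM in AstroEGFR* and at 8.53, 5.53, 6.43 and 5.44 FPKM in PT (log2 difference -1.80, SE 0.26, limma adjusted p = 0.0257). *Wwc2*, of the KIBRA family that promotes LATS activity, was listed at 29.2, 32.1 and 36.4 FPKM in AstroEGFR* and at 13.2, 12.1, 9.90 and 9.94 FPKM in PT (log2 difference -1.45, SE 0.21, limma adjusted p = 0.0261). Neither gene's groups overlapped, and an inhibitor of the cascade and a promoter of it had thus both fallen. The count was 0 or 1 when any single library was left out, and that over all features was then 7 to 123.

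*Amotl2* and *Wwc1* had the lowest log2 differences of the regulators, -2.30 (SE 0.49, limma adjusted p = 0.0802) and -1.87 (SE 0.44, limma adjusted p = 0.106), and passed with the block at 0.0300 and 0.0152. AMOTL2 binds YAP and WWC1 is KIBRA itself. At the other end *Dchs1*, a cadherin gene of the Fat and Dachsous system, was listed at 1.53, 3.48 and 2.12 FPKM in AstroEGFR* and at 44.2, 9.33, 11.6 and 55.7 FPKM in PT. The groups did not overlap, and its log2 difference of 2.87 (SE 0.65) did not pass (limma adjusted p = 0.0963). *Amotl1* and *Nf2*, the gene of Merlin, differed by 0.52 and 0.40 (limma adjusted p = 0.629 and 0.506).

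A signature of 19 other YAP and TAZ target genes was lower on balance. All 19 were tested and 15 had a lower mean log2 level in PT, beside 47.9% of all features. Of the 19, 3 were called lower, beside 0.922% of features, and 0 higher, and the median log2 difference was -0.90 beside 0.027 over all features. *Dock5*, 1 of the 3, passed the filter through AstroEGFR* alone, so this count is a description. With the batch as a block 6 were called lower, beside 2.68% of features. *Amotl2*, *Lats2* and *Ptpn14* stand both in this list and among the regulators or kinases above. Without AstroEGFR*1, AstroEGFR*3 or PT4, 0 of the 19 passed, and 7, 54 and 58 of all features did, against 152 with all libraries.

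The 3 called genes were *Dock5*, *Nuak2* and *Myof*. *Dock5*, with a mean of 0.981 FPKM in PT, reached the filter through AstroEGFR* alone, so it entered the test only because it was high there. In the fit without the filter *Dock5* passed (limma adjusted p = 0.0424), and *Nuak2* and *Myof* did not (limma adjusted p = 0.0516 and 0.0563). *Dock5*, an activator of Rac, was listed at 12, 8.41 and 15.7 FPKM in AstroEGFR* and at 1.34, 0.469, 1.60 and 0.517 FPKM in PT (log2 difference -2.72, SE 0.35, limma adjusted p = 0.0160). *Nuak2*, a kinase of the AMPK family, was listed at 14.0, 9.89 and 8.78 FPKM and at 2.23, 0.741, 0.559 and 1.11 FPKM (log2 difference -2.50, SE 0.35, limma adjusted p = 0.0207). For both genes every PT library was far below the lowest astrocyte library. *Myof*, the gene of the membrane repair protein myoferlin, was listed at 57.7, 77.7 and 51.5 FPKM and at 9.32, 14.8, 18.9 and 6.88 FPKM (log2 difference -2.30, SE 0.36, limma adjusted p = 0.0300), again without overlap.

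*Ccdc80*, which encodes a secreted matrix protein, had the lowest value of the signature at -3.15 (SE 0.80, limma adjusted p = 0.129), and passed with the block (limma adjusted p = 0.00919). Not every target was lower. *Gadd45a*, a stress-response gene, was listed at 57.6, 25.0 and 58.6 FPKM in AstroEGFR* and at 131, 511, 392 and 71.8 FPKM in PT, every PT library above every astrocyte library (log2 difference 2.22, SE 0.71, limma adjusted p = 0.226). *Igfbp3* and *Tgfb2* differed by 1.21 and 1.21 (limma adjusted p = 0.532 and 0.310).

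**Figure D3:**
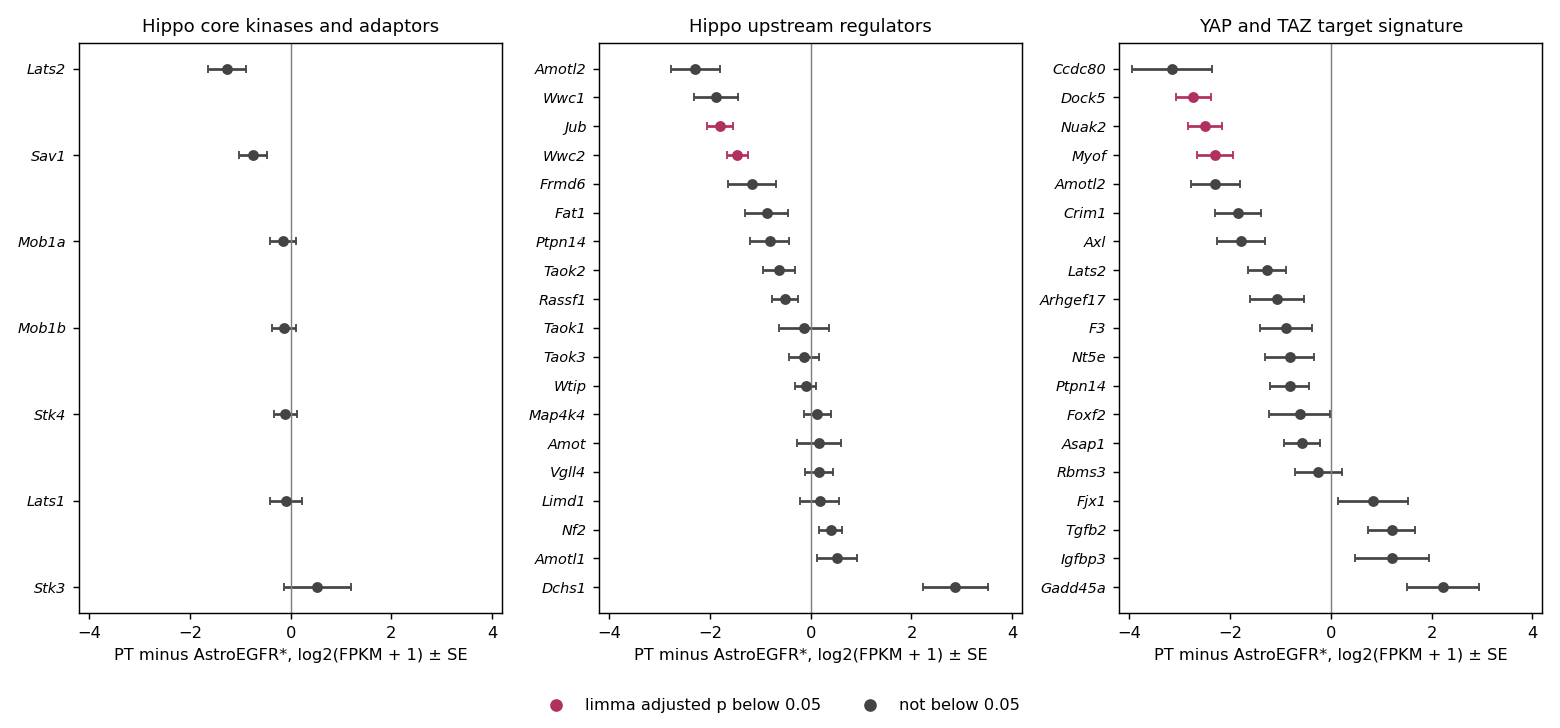
Difference of mean log2(FPKM + 1), PT minus AstroEGFR*, with its standard error, for the 7 core genes, the 19 regulators tested and the 19 signature genes, sorted within each list. *Jub*, *Wwc2*, *Dock5*, *Nuak2* and *Myof* are past the threshold, all lower, and *Dchs1* lies at 2.87 on the other side.

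The second comparison set astrocytes with forced *Zfp423* against their parental cultures, for the same genes and in each astrocyte batch. The AstroEGFR* libraries serve as controls in both comparisons. Before the values, the libraries' match to their numbers was examined. *Xist*, transcribed from the inactive X chromosome, was listed at 20.4, 34.9 and 26.3 FPKM in the AstroEGFR*, PT and *Zfp423* libraries of batch 2 and at 0.0403 FPKM or less in the other 7, and the Y-linked *Eif2s3y* was at 0.0703 FPKM or less in those 3 and at 14.1 FPKM or more elsewhere. The 3 libraries labelled batch 2 thus shared this mark, which does not separate batch 1 from batch 3. Over the features tested, however, deviations from the group mean correlated at 0.239, -0.110 and -0.261 between each *Zfp423* library and its own parental library, while each PT library correlated with its own batch at 0.347 to 0.500. AstroEGFR*2 *Zfp423* correlated at 0.305 with AstroEGFR*3, and AstroEGFR*3 *Zfp423* at 0.223 with AstroEGFR*2. The AstroEGFR*3 *Zfp423* library was closest of all to AstroEGFR*2 (Pearson r = 0.884 over 12476 features). In these deviations the libraries of batches 2 and 3 with *Zfp423* went against their numbers. By *Xist* and *Eif2s3y* they did not, at 26.3 and 0 FPKM in AstroEGFR*2 *Zfp423* and at 0.00880 and 44.6 FPKM in AstroEGFR*3 *Zfp423*. An exchange of these 2 libraries would go against both of these genes. Deviations over all features also take in cell type markers, which differed between these libraries as given below. Every within-batch difference rests on the numbers as labelled. Small RNA features took 35.0%, 35.1% and 54.5% of the FPKM in the 3 *Zfp423* libraries against 0.738%, 27.7% and 4.85% in their parental libraries, and the part of this difference in the results was not tested.

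The *Zfp423* libraries also differed in cell type markers. Microglia and macrophage markers summed to 545 and 352 FPKM in batches 1 and 2 with *Zfp423* and to 1.28 FPKM in batch 3, against 7.21 to 39.5 FPKM in AstroEGFR* and 2.38 to 36.7 FPKM in PT. Of the 8 markers, *Csf1r*, *Cx3cr1*, *Aif1* and *Ptprc* were under 1 FPKM in all AstroEGFR* and PT libraries, while *Tmem119* reached 38.0 FPKM in AstroEGFR*3, *Cd68* 36.5 FPKM in PT2, *P2ry12* 2.10 FPKM in PT4 and *Itgam* 1.53 FPKM in AstroEGFR*1. Fibroblast and meninges markers summed to 4529, 6233 and 261 FPKM in batches 1, 2 and 3 with *Zfp423*, where the parental libraries had 407, 564 and 5182 FPKM. Pericyte and smooth muscle markers summed to 1246, 2134 and 93.9 FPKM. All 3 sums were lowest in batch 3. The vector and the mix of cells cannot be told apart in these libraries, and the part of either was not tested.

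No gene of the set passed the test with *Zfp423*. All 10 were tested, and 0 were called by limma with the batch as a block, beside 0% of the 12366 features tested (lowest adjusted p = 0.272). *Ankrd1* passed the filter through AstroEGFR*2 *Zfp423* alone. At an unadjusted p under 0.05, 1 of the 10 differed, beside 7.38% of features, and 1 of 10 is near that share. That gene was *Tead1*, listed at 17.9, 21.4 and 26.5 FPKM with *Zfp423* against 68.5, 29.5 and 52.4 FPKM without. Every *Zfp423* library was below every parental library, and the mean was 2.28-fold lower (log2 difference -1.09, SE 0.35, limma adjusted p = 0.628). The share of all features separated in this way was not computed. Without the block, 2 features and 0 of the 10 genes passed, and without batch 2, 51 features and 0 of the 10 passed.

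The coactivators and *Tead2* had no difference past the threshold either. *Yap1* was listed at 36.6, 49.0 and 26.3 FPKM with *Zfp423*, differences of -0.73, 0.42 and -0.98 in batches 1, 2 and 3 (fitted difference -0.43), and was 2.01-fold lower in batch 3. *Wwtr1* was listed at 81.8, 61.3 and 117 FPKM (fitted difference -0.43, lower in 3 of 3 batches). *Tead2* was listed at 41.0, 28.4 and 40.3 FPKM, differences of 0.79, -0.60 and 0.36 (fitted difference 0.18). Each of these genes overlapped its parental values, and the 4 TEAD genes together came to 68.4 to 69.5 FPKM with *Zfp423* against 80.1 to 105 FPKM without.

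The target *Ctgf*, the cofactor *Vgll3* and the TEAD genes *Tead3* and *Tead4* went in opposite ways in batches 2 and 3. *Ctgf* was listed at 166, 261 and 23.7 FPKM with *Zfp423*, where the parental libraries had 297, 82.3 and 370 FPKM, differences of -0.84, 1.65 and -3.91 on the log2 scale. *Vgll3* was listed at 12.4, 60.8 and 1.84 FPKM against 7.69, 9.13 and 33.5 FPKM, differences of 0.63, 2.61 and -3.60. Both genes were thus highest with *Zfp423* in batch 2 and lowest in batch 3, and in batch 3 *Ctgf* came close to the 20.0 FPKM of PT3.

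*Tead3* and *Tead4* followed the same course. *Tead3* was listed at 8.80, 14.5 and 2.52 FPKM with *Zfp423*, differences of -0.31, 1.07 and -2.35. *Tead4* was listed at 0.677, 4.33 and 0.209 FPKM, differences of -0.87, 1.45 and -1.40. These 4 genes rose by at least 1 on the log2 scale in batch 2 and fell by at least 1 in batch 3, beside 5.14% of the 12366 features that did so, and the reverse course was taken by 0 of the 10 genes and 2.65% of features. With 1 library per batch and condition, the difference between batches could not be tested.

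*Cyr61* differed by more than 1 in batch 3 alone. It was listed at 233, 295 and 87.1 FPKM with *Zfp423* against 301, 317 and 416 FPKM without, differences of -0.37, -0.10 and -2.24. Every *Zfp423* library was below every parental library, a separation whose share over all features was not computed. The test over the 3 batches gave -0.90 (SE 0.54, limma adjusted p = 0.680). *Ankrd1* stood out in 1 library. It was listed at 0.797, 18.5 and 0.0246 FPKM with *Zfp423*, differences of 0.14, 3.76 and -0.87, and AstroEGFR*2 *Zfp423* was the only library of the 10 above 1 FPKM. Its levels with *Zfp423*, 6.44 ± 10.4 FPKM (SD, n = 3), have a spread larger than their mean.

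**Figure D4:**
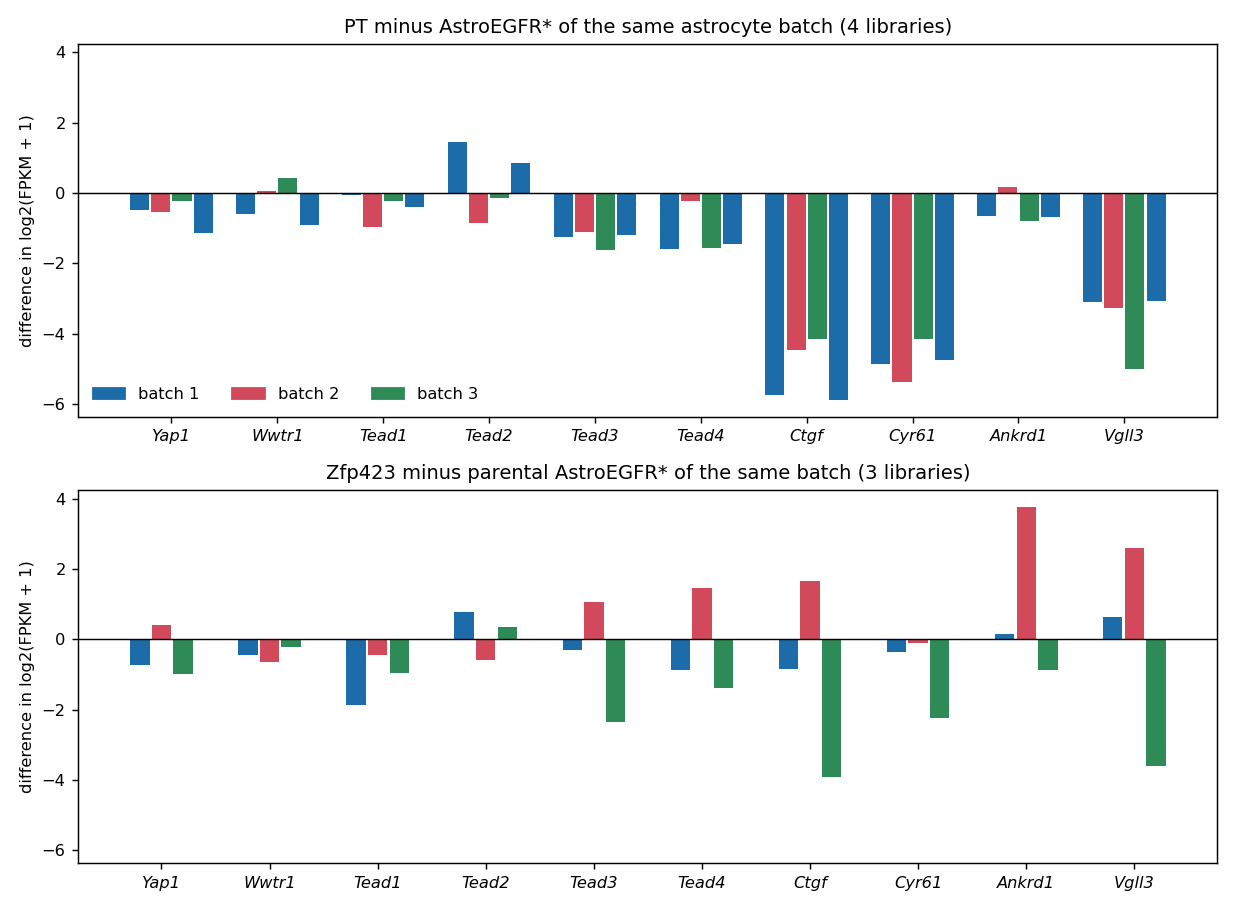
Difference in log2(FPKM + 1) from AstroEGFR* of the same astrocyte batch, with 1 bar per library, for the 4 PT libraries in the order PT1 to PT4 (upper) and the 3 *Zfp423* libraries in the order of their batches (lower). In the upper panel the bars of *Ctgf*, *Cyr61* and *Vgll3* all point down, from -3.06 to -5.88, and in the lower panel those of *Tead3*, *Tead4*, *Ctgf* and *Vgll3* point up in batch 2 and down in batch 3.

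The wider pathway had no called gene with *Zfp423* either, 0 of 7 core genes, 0 of 20 regulators and 0 of 19 signature genes, beside 0% of all 12366 features. Their median log2 differences were 0.25, -0.046 and -0.11, beside 0.020 over all features. Of the core genes *Mob1a*, *Lats1* and *Stk4* were the highest at 0.52, 0.31 and 0.29, and *Lats2*, *Mob1b* and *Sav1* the lowest at -0.25, -0.052 and 0.0039. *Wwc1* had the lowest value of the regulators, -2.16 (SE 0.50, limma adjusted p = 0.628), with differences of -1.38, -3.49 and -1.60 in the 3 batches. It was listed at 51.3, 5.18 and 32.2 FPKM with *Zfp423* against 135, 68.4 and 99.8 FPKM without. These did not overlap, and the share of all features without overlap was not computed.

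Other regulators at the ends of the list were *Ptpn14* at -0.83, *Dchs1* at -0.70, *Limd1* at 0.46, *Fat4* at 0.55 and *Taok1* at 0.72 (limma adjusted p between 0.628 and 0.799). Of the signature *F3*, the gene of tissue factor, was the lowest at -1.18, and *Gadd45a* and *Fjx1* the highest at 1.19 and 0.61 (limma adjusted p between 0.628 and 0.696). *Igfbp3*, which encodes an IGF-binding protein, had a mean of -1.12 (SE 2.08) that joined differences of -0.096, -6.70 and 3.45.

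By batch, the signature's median difference with *Zfp423* was -0.096, 0.65 and -0.21, beside 0.046, 0.011 and 0 over all features. In batch 2, 7 of the 19 rose by at least 1, beside 12.3% of features, and 3 fell by at least 1, beside 12%. In batch 3, 2 rose by at least 1, beside 9.7% of features, and 5 fell, beside 16.5%. *Ccdc80* (3.42 and -3.82), *Nt5e* (3.46 and -2.22), *Dock5* (1.61 and -1.98) and *Asap1* (1.13 and -1.10) went up by at least 1 in batch 2 and down by at least 1 in batch 3, as 5.14% of features did. *Gadd45a* went up in both (1.70 and 2.16), and *Nuak2* down in both (-0.46 and -1.32).

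Across all 10 libraries some pairs of these genes varied together more closely than others. Over log2(FPKM + 1), *Ctgf* correlated with *Cyr61* at a Pearson r of 0.965 and with *Vgll3* at 0.921, and *Tead3* correlated with *Ctgf* at 0.891, with *Vgll3* at 0.875 and with *Yap1* at 0.809. *Yap1* correlated with *Ctgf* at 0.703, with *Cyr61* at 0.554, with *Vgll3* at 0.546 and with *Tead1* at 0.542, and *Ankrd1* with *Tead4* at 0.827 and with *Cyr61* at 0.447. *Wwtr1* correlated with *Ctgf* at 0.156 and with *Yap1* at 0.208, and *Tead1* with *Ctgf* at 0.0233. These values describe 10 libraries that fall into 3 groups and share batches, and they carry no test. Those of *Ankrd1* rest largely on AstroEGFR*2 *Zfp423*, the only library where it was above 1 FPKM.

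Among 12476 features the 3 most like *Ctgf* were *Thbs1* (0.987), which encodes thrombospondin 1, *Samd4* (0.986) and *Pdgfrb* (0.980), a pericyte marker. The 3 most like *Cyr61* were *Tagln* (0.984), which encodes the smooth muscle protein transgelin, *Ptplad2* (0.971) and *Lpar1* (0.968), a receptor of lysophosphatidic acid. *Vgll3* was most like *Foxp1* (0.984), *Plekhh2* (0.981) and *Fhl2* (0.981), and *Tead3* most like *Scarf2* (0.975), *Cd248* (0.972) and *Sertad4* (0.971). *Ankrd1* was most like *Il1rl1* (0.982), *Prl2c1* (0.980) and *Mmp12* (0.969), and *Tead4* like *Pcdhga5* (0.936), *Fam46b* (0.932) and *Vasn* (0.931). *Yap1* was most like *Mtap7d1* (0.931), *Mkl1* (0.911) and *Col4a3bp* (0.908), and *Wwtr1* like *Cd151* (0.960), *Lyrm4* (0.905) and *Yipf4* (0.891). *Tead1* was most like *Dhx9* (0.978), *Adnp* (0.967) and *Fam189b* (0.967), and *Tead2* like *Amd1* (0.950), *Amot* (0.895) and *Taf6l* (0.868).

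The level of *Ctgf* and *Vgll3* can be set beside the fibroblast and meninges markers in each library. The 3 libraries with the highest marker sums, AstroEGFR*2 *Zfp423* (6233 FPKM), AstroEGFR*3 (5182 FPKM) and AstroEGFR*1 *Zfp423* (4529 FPKM), also had the 3 highest levels of *Vgll3*, at 60.8, 33.5 and 12.4 FPKM. At sums of 261 to 564 FPKM the levels of *Ctgf* differed. AstroEGFR*1, with a sum of 407 FPKM, had 297 FPKM of *Ctgf*, AstroEGFR*2, with 564 FPKM, had 82.3 FPKM, PT3, with 431 FPKM, had 20.0 FPKM, and AstroEGFR*3 *Zfp423*, with 261 FPKM, had 23.7 FPKM. The pericyte and smooth muscle sums of these 4 libraries were 1023, 755, 10.0 and 93.9 FPKM in that order. The part of either cell type was not tested.

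**Figure D5:**
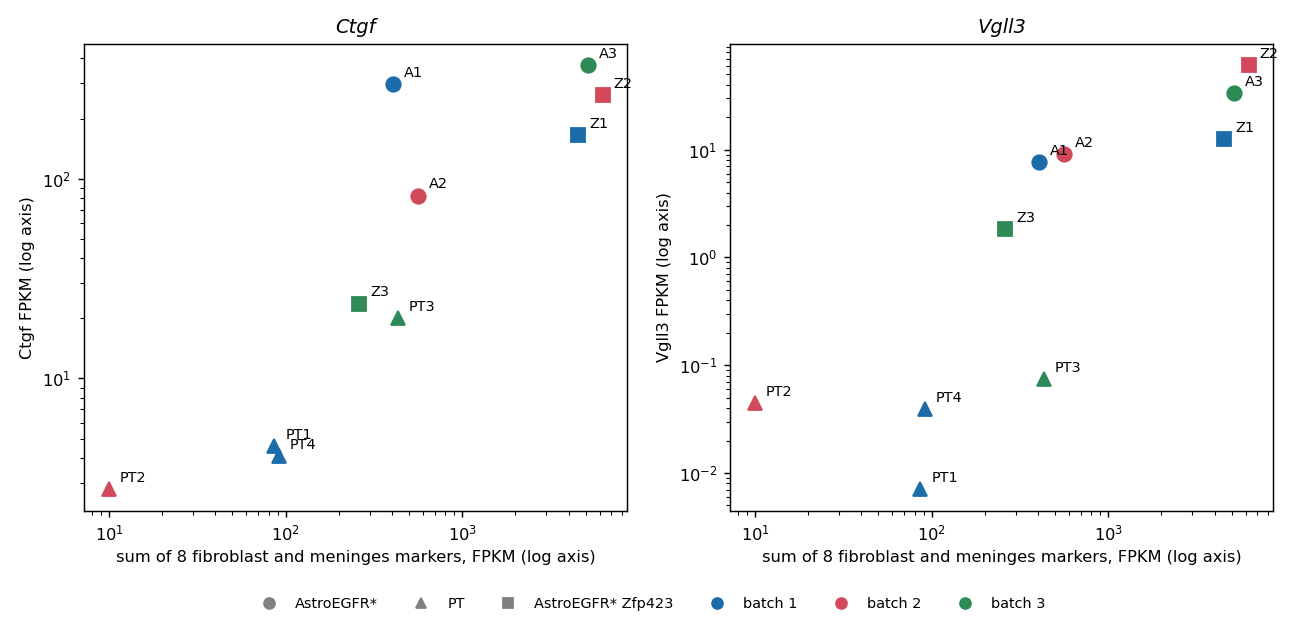
FPKM of *Ctgf* (left) and *Vgll3* (right) against the summed FPKM of 8 fibroblast and meninges markers, both on log axes, with 1 point per library, shaped by group and coloured by batch (A, AstroEGFR*; Z, AstroEGFR* *Zfp423*). Libraries with high marker sums lie high on both panels, while AstroEGFR*1, AstroEGFR*2, PT3 and AstroEGFR*3 *Zfp423* have sums of 407, 564, 431 and 261 FPKM and *Ctgf* at 297, 82.3, 20.0 and 23.7 FPKM.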

How the data were processed

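The authors deposited 1 matrix of FPKM values, which their processing notes credit to TopHat 1.3, Cuffnorm and the mm9 assembly. The labels name a TruSeq RNA kit and the study's methods ribosomal RNA depletion with stranded libraries. All 10 columns were used, and FPKM give no counts, so depth is unknown and no count test was run. Groups came from the sample titles and the batch of each PT culture from the study. The genes, lists and tests were chosen with earlier results of these data known.

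A feature entered a comparison when its mean over those libraries reached 1 FPKM. PT and AstroEGFR* were compared on log2(FPKM + 1) over 12261 features with limma 3.58.1 (R 4.3.3, empirical Bayes with trend) and Benjamini-Hochberg adjustment over all of them at a threshold of 0.05. Astrocytes carrying the *Zfp423* vector were set against their parental astrocytes likewise over 12366 features with the batch as a block, because the titles share its number and both cultures came from 1 batch. Deviations from the group means correlated at 0.239, -0.110 and -0.261 within these pairs and at 0.347 to 0.500 between each PT library and its batch. The main test of PT had no such block, although the PT cultures too came from these batches. PT1 and PT4, of 1 batch and the most alike of all library pairs (Pearson r = 0.956), counted there as 2 cultures. The block and the average of PT1 and PT4 were alternatives. Tested on simulated data with 200 changed features, the procedure called 175 in the first comparison, of which 163 were changed, and 101 in the second, of which 93 were changed, and 0 had the wrong sign. The changes were set at 3 log2 units, in features with a mean log2 level above 3 and with independent noise in each library. Smaller differences and the batch shared by PT1 and PT4 were not imitated, so these counts are not the sensitivity for the real data. The text names all 10 genes, every called gene of the 3 lists with the 3 highest and lowest per list and comparison, and the 3 features most correlated with each gene. Genes at the opposite ends in batches 2 and 3 and a few markers were named after their values were seen. Alternatives were a pseudocount of 0.1, no filter or one at 5 FPKM, median-ratio scaling, no trend, 1 fit to the 10 libraries together, adding or dropping the batch block, PT1 and PT4 averaged, and libraries left out. Within-batch differences with scaling over 10 libraries and with the pseudocount of 0.1 were added after the data were seen. Python 3.11.15 with pandas 2.3.3, numpy 2.4.6 and matplotlib 3.10.9 gave the summaries and figures.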

Additional observations from a re-analysis of the deposited data

Results flagged for a closer look

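*Ankrd1* in PT2 stood apart from the other PT libraries. It was listed at 0.635 FPKM there and at 0.0745 FPKM or less in the other 3, and the gap to the nearest of them was 0.866 of the group's range on the log2(FPKM + 1) scale, where about 1 group in 20 would show such a gap by chance. All 10 genes were examined in this way and this was the only such gap, and PT1 and PT4 share an astrocyte batch.

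*Tead3*, *Tead4*, *Ctgf* and *Vgll3* moved in opposite directions with *Zfp423* in batches 2 and 3. The log2 differences were 1.07 and -2.35 for *Tead3*, 1.45 and -1.40 for *Tead4*, 1.65 and -3.91 for *Ctgf*, and 2.61 and -3.60 for *Vgll3*. There was 1 library per batch and condition, so this difference between batches was not tested, and it rests on the batch numbers in the labels. In the same libraries the sum of fibroblast and meninges markers went from 564 to 6233 FPKM in batch 2 and from 5182 to 261 FPKM in batch 3, and its part was not tested.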

How the results depend on the processing

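Depth is unknown, so how far counting error limits low values such as those of *Ankrd1*, *Tead4* and *Vgll3* is unknown too. In PT against AstroEGFR*, 152 features were called, 82 with all 10 libraries in 1 fit, 475 with the replicate block, 61 with PT1 and PT4 averaged, 8 without both libraries of batch 3, and 7 to 123 with 1 library left out. Of the 10 genes, 3 were called, 4 with the block, 1 with PT1 and PT4 averaged, 1 without batch 3, and 1 to 3 with 1 library left out (1 without AstroEGFR*1 or PT4). *Ctgf* also missed the threshold without the filter (limma adjusted p = 0.0570), with PT1 and PT4 averaged (0.0683) and without batch 3 (0.0797), and *Vgll3* with a mean of at least 5 FPKM (0.0636), all 10 libraries (0.0921), PT1 and PT4 averaged (0.0523) and without batch 3 (0.0789). The causes were not tested. With log2(FPKM + 0.1), *Vgll3* differed by -5.81 to -7.59 within batches. With 1 library left out, *Tead1* ranged from -0.61 to 0.17 (above 0 without PT2) and *Tead2* from -0.043 to 0.45 (below 0 without PT1).

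With *Zfp423*, 0 features were called, 2 with no replicate block, and 0 to 51 with a pair left out, of which 0 were among the 10 genes. Pairing changed no other call of the 10 genes than that of *Tead3* given above. With a pair left out, *Tead2* ranged from -0.12 to 0.57, *Tead3* from -1.33 to 0.38, *Tead4* from -1.13 to 0.29, *Ctgf* from -2.37 to 0.41 and *Vgll3* from -1.49 to 1.62. The medians ranged from -0.13 to 0.22 (core genes), -0.17 to 0.021 (regulators) and -0.35 to 0.27 (signature). Signs turned without batch 1 for *Tead2*, *Tead4* (to 0.029) and the regulators, and without batch 3 for *Tead3*, *Tead4*, *Ctgf*, *Vgll3*, the core genes and the signature.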

Other observations

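Other marker lists were summed in the same libraries. Endothelial markers (8 genes) summed to 1.74 to 5.49 FPKM in AstroEGFR*, 0.426 to 10.5 FPKM in PT and 4.06 to 14.5 FPKM with *Zfp423*, and *Pecam1*, *Kdr* and *Cldn5* were under 1 FPKM in all 10 libraries. Oligodendrocyte lineage markers (8 genes) summed to 42.5 to 93.9, 18.7 to 334 and 51.6 to 88.6 FPKM, and neuronal markers (7 of 8 found) to 28.6 to 70.7, 29.9 to 116 and 21.2 to 60.9 FPKM, in the same order of groups. The groups overlapped for each of these lists.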
